A study of Mus musculus with 24 samples.

Results

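The clustered histone genes of the mouse are the replication-dependent genes that supply the core histones H2A, H2B, H3 and H4 and the linker histone H1. They were taken as every entry of the deposited gene table whose symbol begins with Hist1h, Hist2h, Hist3h or Hist4h, the older symbols of this family. This rule gave 68 of 25965 entries, of which 6 were H1, 19 H2A, 18 H2B, 12 H3 and 13 H4 genes. The table places 55 of them on chromosome 13, 10 on chromosome 3, 2 on chromosome 11 and 1 on chromosome 6.

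Dividing cells transcribe these genes in S phase, when new DNA is packed into nucleosomes. Their messenger RNAs classically end not in a poly(A) tail but in a short hairpin, the 3′ stem-loop, which is held by the stem-loop binding protein SLBP and is needed for processing, translation and decay of the message. An ovulated oocyte is arrested in metaphase II with its transcription silent, so it holds stored messages and draws on stored histone for the first cell cycles after fertilization. Some of the clustered genes are germ-line variants, such as Hist1h2aa and Hist1h2ba, which encode TH2A and TH2B, and Hist1h1t, which encodes the testis linker histone H1t. The cDNA kit used here primes from poly(A), so the values describe the histone messages it could prime and are not a measure of all histone RNA.

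The study asked whether excess anti-Müllerian hormone (AMH) alters the transcripts of the oocyte. Naturally ovulated oocytes came from adult wild-type mice and from Thy1.2-AMHTg/0 mice, which overexpress AMH from a transgene driven by the Thy1.2 promoter, and were freed of cumulus cells and zona before each was lysed on its own. Each of 4 sequencing lanes held 1 female of each genotype with 2 or 3 oocytes, so 10 transgenic and 11 wild-type oocytes from 8 females were analysed, together with 1 library of the kit's control RNA. The female was the replicate (n = 4 per genotype), and levels are given in RPM, a gene's reads per 1000000 of the library, without division by transcript length. RPM is a share of a library, so a smaller share and a smaller amount per oocyte cannot be told apart. The labels do not name the strain.

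Oocyte libraries held 20400000 to 33300000 reads, so that 3 reads stood for 0.0900 to 0.147 RPM. The summed level of 12 oocyte markers was 19905.5 to 32839.9 RPM in the oocytes and 17.1 RPM in the control RNA. The 16 cumulus and granulosa markers summed to at most 3.29 RPM in the transgenic oocytes, and to 0.147 to 36.4 RPM in the wild-type oocytes, the highest being oocyte C of the wild-type female of lane 2. All 4 blood markers matched were at 0 in every oocyte, and Amh itself did not exceed 0.0353 RPM. The wild-type female of lane 4 stood apart: 214 tested genes lay at least 1 log2 unit above every other female there, against 0 to 24 in the other 7 females.

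The stem-loop is printed here because it is the feature that separates these messages from most others. It was searched in the annotated transcripts of GENCODE M21 as 16 bases, on the transcript strand only: a 6-base arm that begins with GG, a 4-base loop with T as the third base, and the exact reverse complement of the arm. Of the 68 members, 46 had at least 1 transcript model that holds it (4 H1, 11 H2A, 10 H2B, 9 H3 and 12 H4). Of 141767 single mouse transcripts, those of histone genes included, 0.994% held it, a share per transcript and not per gene. The 5 forms found in more than 1 member follow, each under the name of 1 gene that carries it, with the 2 arms of the stem in capitals and the loop in lower case.
Hist1h1c: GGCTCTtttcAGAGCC
Hist1h4c: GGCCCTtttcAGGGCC
Hist1h1t: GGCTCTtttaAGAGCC
Hist1h4i: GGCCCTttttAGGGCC
Hist1h4b: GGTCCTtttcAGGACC
The form of Hist1h1c was carried by 26 members, of which 3 were H1, 10 H2A, 8 H2B and 5 H3 genes. The form of Hist1h4c was carried by 7 members, all H4. The form of Hist1h1t, with a different last base of the loop, was carried by 6 members (1 H1, 2 H2B and 3 H3), and the remaining 2 forms by 2 H4 genes each. The models of the 3 members with the most oocyte reads, Hist1h1a, Hist1h2aa and Hist1h2bc, hold no such stem-loop, and neither does that of Hist1h2ba. A model can end before the true 3′ end, so no match says only that these letters are not in the annotated transcript. The whole model was searched, so a match need not lie at its 3′ end. Among members with a mean of at least 1 RPM, 6 held the stem-loop. Their models ran on past it, from 169 bases in Hist3h2ba to 2010 in Hist1h2ac.

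Most clustered histone genes had few reads or none in these libraries, and 3 of them held most of the family's reads. At least 1 read in any oocyte was found for 45 of 68 members (66.2%), against 70.5% of all entries. A mean of at least 1 RPM was reached by 9 members (13.2%), namely Hist1h1a, Hist1h2aa, Hist1h2bc, Hist2h3c1, Hist3h2ba, Hist1h2ac, Hist1h1e, Hist3h2a and Hist1h1c, against 42.3% of all entries. A further 14 members lay between 0.1 and 1 RPM, 22 had reads but a mean below 0.1 RPM, and 7 of those 22 had only 1 to 3 reads over all oocytes together. The other 23 had no read in any oocyte, which allows a mean of up to 0.00600 RPM (3 reads over all oocytes), and 19 of these had none in the control RNA either. Together the members took 0.00937% of the oocyte reads.

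**Figure D1:**
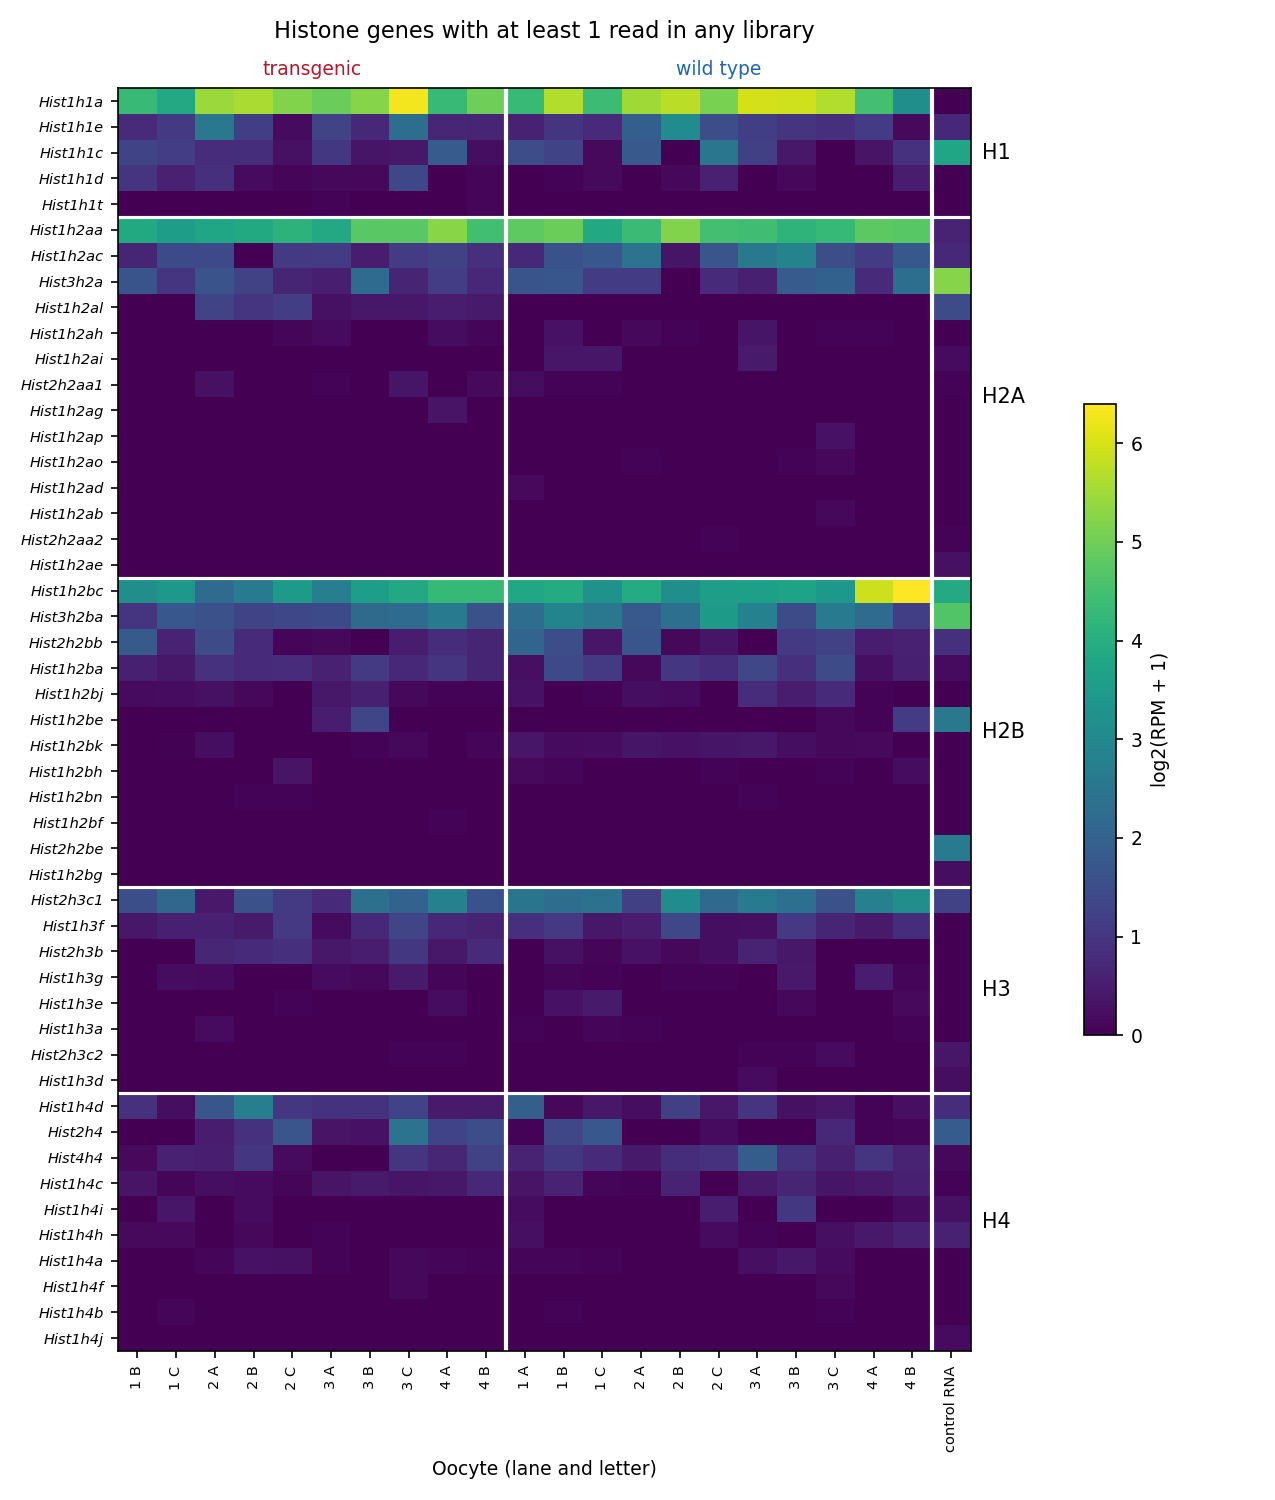
Levels of the histone genes with at least 1 read in any library, as log2(RPM + 1), with genes in rows by class and libraries in columns by genotype, lane and oocyte letter, and the control RNA last. Hist1h1a, Hist1h2aa and Hist1h2bc are bright in all 21 oocytes, whereas Hist1h1a is at 0 in the control RNA and Hist2h2be has reads only there.

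Each oocyte showed reads of 18 to 28 members, with a median of 24, and the control RNA of 27. Only 9 members were seen in all 21 oocytes. Summed over the family, the level ran from 48.1 to 143 RPM per oocyte, with a mean of 94.9 ± 27.1 RPM (SD, n = 21 oocytes of 8 females), and was 109 RPM in the control RNA. Hist1h1a, Hist1h2aa and Hist1h2bc made up 77.9% of the family's reads on average (68.0% to 86.8% per oocyte) but 13.3% in the control RNA.

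Reads depend on transcript length, so levels of different genes were also set per kilobase of the longest M21 transcript. On this scale Hist1h2aa stood at 54.6 and Hist1h1a at 49.5 RPM per kilobase, and their order was not fixed: Hist1h2aa was higher in 12 of 21 oocytes. Hist1h2bc followed at 14.3 RPM per kilobase and lay below Hist1h1a in 19 and below Hist1h2aa in 20 of 21 oocytes. Hist3h2ba came next at 5.77 RPM per kilobase, below Hist1h2bc in 16 of 21 oocytes and above Hist1h2ba, at 2.07, in all 21. Hist1h2ba and Hist2h3c1, at 2.07 and 1.96 RPM per kilobase, did not keep an order, the former being higher in 13 of 21 oocytes. By class the summed level per kilobase averaged 57.3 for H2A, 51.1 for H1, 23.6 for H2B, 3.42 for H3 and 2.49 for H4. Most of the H2A and H1 sums came from Hist1h2aa and Hist1h1a, while Hist1h2bc, Hist3h2ba and Hist1h2ba shared most of that of H2B. These orders depend on the models, which had 390 bases for Hist1h2aa, 741 for Hist1h1a and 2482 for Hist1h2ac. A model that ends before the true 3′ end raises the value per kilobase.

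**Figure D2:**
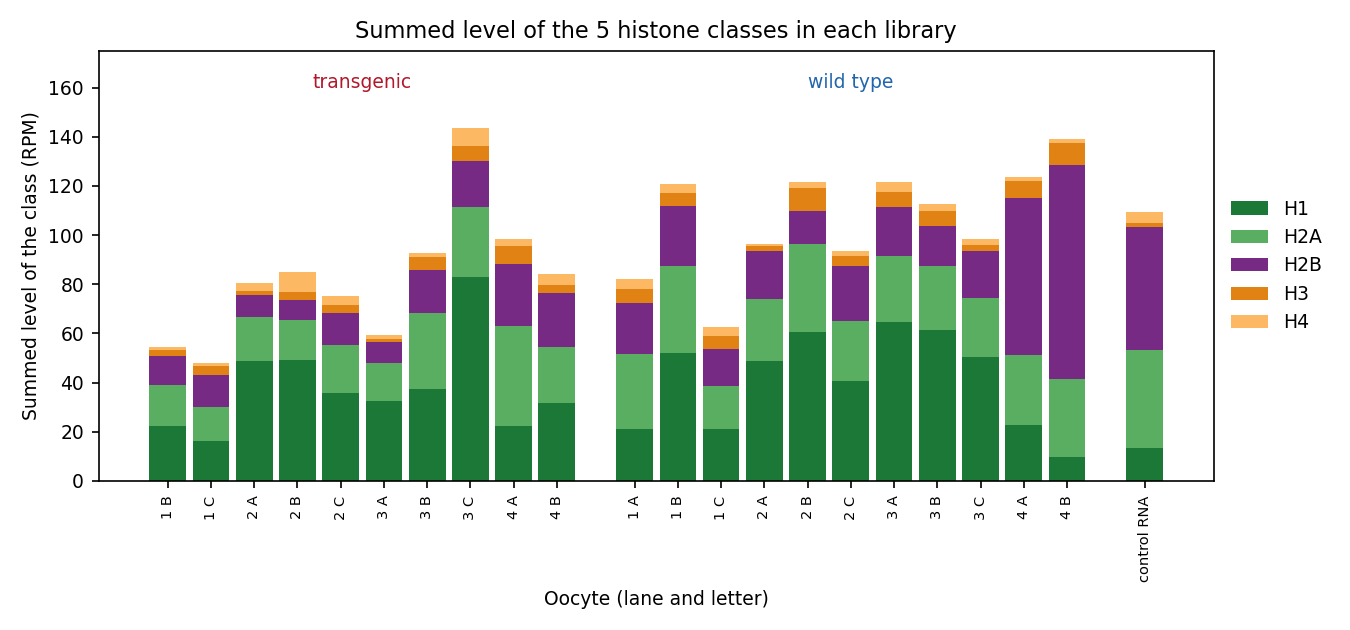
Summed level of each histone class in RPM (stacked bars) in every oocyte, ordered by genotype, lane and letter, and in the control RNA. H1, H2A and H2B fill most of every bar, and the H2B part is largest in the 2 wild-type oocytes of lane 4.

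Linker histones bind the DNA that enters and leaves the nucleosome. Among the 6 clustered H1 genes, reads were found for 5, and Hist1h1a (chr13:23763668-23764414, plus strand) alone made up 92.5% of the class. Its level in the transgenic oocytes had a lowest, median and highest value of 13.4, 32.9 and 77.2 RPM, and in the wild-type oocytes of 8.13, 43.6 and 62.2 RPM. The genotypes overlapped over nearly the whole range. The females' means in lanes 1 to 4 were 16.3, 41.5, 47.8 and 24.8 RPM for the transgenic and 29.5, 43.3, 57.3 and 14.8 RPM for the wild-type mice, so that in both genotypes lanes 2 and 3 held the higher females. The control RNA had no read of Hist1h1a, and the oocyte mean of 36.7 RPM was at least 269-fold higher than the 3-read limit of that library.

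The other linker histone genes were low and uneven. Hist1h1e averaged 1.63 ± 1.82 RPM (SD, n = 21 oocytes), with 0.132, 0.923 and 4.94 RPM as lowest, median and highest transgenic and 0.117, 0.960 and 7.56 RPM as the same wild-type values. Hist1h1c, a somatic linker histone gene, averaged 1.06 ± 1.14 RPM and was at 12.7 RPM in the control RNA. Its reads were missing from 2 of the 21 oocytes, and 9 reached 1 RPM. Hist1h1d averaged 0.273 RPM, and Hist1h1t had 3 reads over all oocytes.

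H2A genes with reads numbered 13 of 19. Hist1h2aa (chr13:23934462-23934851, plus strand), which encodes TH2A, held 84.8% of the class. Its lowest, median and highest levels were 10.9, 15.2 and 37.2 RPM in transgenic and 13.9, 21.3 and 35.5 RPM in wild-type oocytes. By female it was 12.4, 14.3, 21.9 and 29.1 RPM in the transgenic and 23.8, 25.4, 18.7 and 26.1 RPM in the wild-type mice of lanes 1 to 4. The transgenic females lay below their lane mates in lanes 1 and 2 and above them in lanes 3 and 4. In the control RNA it had 12 reads, or 0.544 RPM, 39.1-fold below the oocyte mean.

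Hist1h2aa and Hist1h2ba, which encodes the partner variant TH2B, start head to head, with 280 bases between their annotated starts. The sequence before the start of Hist1h2aa is shown because it lies wholly in this shared stretch. It is from RefSeq on GRCm38.p6, chr13:23934187-23934436, plus strand, and capitals mark the TATA motif TATAAA, the CCAAT box and, as a further element of histone promoters, the octamer ATTTGCAT, each searched on both strands.
Hist1h2aa: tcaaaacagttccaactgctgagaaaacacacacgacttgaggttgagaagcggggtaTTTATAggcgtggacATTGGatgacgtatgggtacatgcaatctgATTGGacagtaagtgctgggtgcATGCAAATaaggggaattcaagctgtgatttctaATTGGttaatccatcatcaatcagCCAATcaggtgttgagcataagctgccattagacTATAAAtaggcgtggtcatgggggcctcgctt
The stretch holds 2 TATAAA, 4 CCAAT and 1 octamer. Among the 62 members with a RefSeq promoter window of 300 bases, TATAAA was found in 56.5%, CCAAT in 85.5% and the octamer in 22.6%, against 13.6%, 37.4% and 1.74% of 32851 windows. The octamer was confined to 7 H2A and 7 H2B windows, and CCAAT was found in 3 H4 windows. Despite the shared stretch the levels were unequal: Hist1h2ba averaged 0.796 ± 0.472 RPM, with 0.330, 0.691 and 1.12 RPM as lowest, median and highest transgenic and 0.0932, 0.823 and 1.81 RPM as the same wild-type values. Per kilobase Hist1h2aa was 26.3-fold higher than Hist1h2ba on average, and higher in 21 of 21 oocytes.

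Hist1h2ac, a canonical H2A gene, averaged 1.84 ± 1.59 RPM. Its lowest, median and highest levels were 0, 1.14 and 1.71 RPM in transgenic and 0.291, 2.24 and 6.22 RPM in wild-type oocytes. The female means were 1.15, 0.929, 0.932 and 1.10 RPM against 1.69, 2.32, 4.36 and 1.77 RPM in lanes 1 to 4, so those of the genotypes did not overlap, whereas the oocytes did. Hist3h2a averaged 1.53 ± 1.12 RPM. It lies wholly within Trim17 on the same strand, at 1.37 RPM, so reads of the 2 genes cannot be told apart by position alone.

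Hist1h2al, which M21 annotates as a processed pseudogene (chr13:51202688-51203065), showed a pattern of presence and absence and is named here after its values were seen. It had 33, 21 and 28 reads in the transgenic oocytes of lane 2, 5, 7 and 7 in those of lane 3, and 11 and 9 in those of lane 4. No read was found in the 2 transgenic oocytes of lane 1 or in any of the 11 wild-type oocytes, while the control RNA had 40. The transgenic female means averaged 0.481 ± 0.525 RPM (SD, n = 4), with the female of lane 1 at 0. For the wild-type oocytes, 3 reads over all of them would allow 0.0116 RPM. The gene was picked for this pattern, so the difference between genotypes is not evidence of an effect. Of its 50-base stretches 67.6% also occur in other annotated genes, so the source of the reads is uncertain.

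Of the 18 H2B genes, 10 had reads. Hist1h2bc (chr13:23684199-23692488, plus strand), a canonical H2B gene, made up 74.2% of the class. Its lowest, median and highest levels were 3.74, 9.93 and 18.5 RPM in transgenic and 8.09, 12.2 and 83.3 RPM in wild-type oocytes. In the wild-type female of lane 4 the oocytes had 59.3 and 83.3 RPM, a mean 3.85-fold above the next highest female, which was the transgenic female of the same lane at 18.5 RPM. The other 6 females lay between 6.37 and 11.9 RPM. The control RNA had 14.1 RPM of Hist1h2bc, within the range of the oocytes.

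Hist3h2ba averaged 3.54 ± 2.23 RPM, with female means of 1.65, 1.71, 3.03 and 3.57 RPM in the transgenic and 5.08, 5.55, 4.29 and 2.50 RPM in the wild-type mice of lanes 1 to 4. The transgenic female was lower in lanes 1 to 3 and higher in lane 4. The entry Hist2h2bb, at 0.905 RPM, carries an identifier that M21 gives to a long noncoding RNA, so its class is uncertain. Hist1h2bk, at 0.122 RPM, had reads in 5 of 10 transgenic and 10 of 11 wild-type oocytes, never more than 8 in 1 oocyte.

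**Figure D3:**
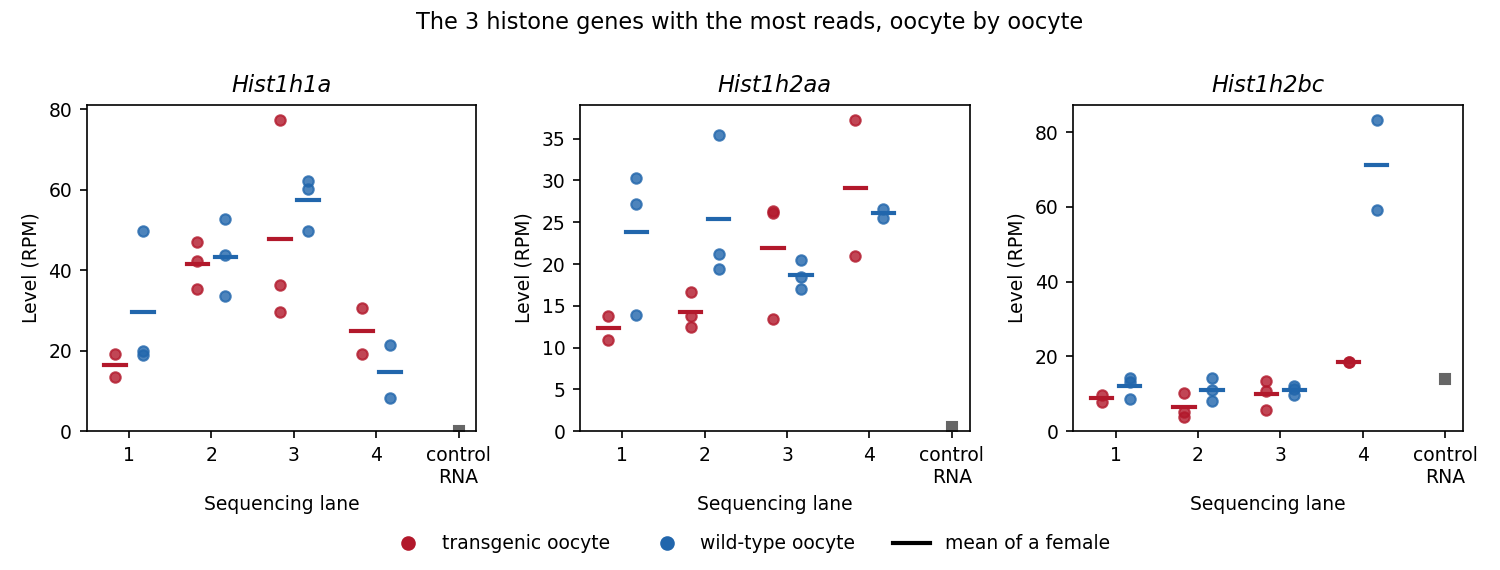
Levels in RPM of Hist1h1a, Hist1h2aa and Hist1h2bc in every oocyte (points) by sequencing lane, with the mean of each female (lines) and the control RNA (square). The female means of Hist1h1a are highest in lanes 2 and 3 in both genotypes, and Hist1h2bc reaches 59.3 and 83.3 RPM in the wild-type oocytes of lane 4.

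H3 reads were found for 8 of 12 genes, and 75.5% of them lay in Hist2h3c1 (chr3:96246685-96248509, plus strand). Its lowest, median and highest levels were 0.356, 2.04 and 6.06 RPM in transgenic and 1.31, 4.22 and 7.98 RPM in wild-type oocytes. The female means were 2.59, 1.17, 2.64 and 4.06 RPM against 4.23, 4.17, 3.76 and 6.91 RPM in lanes 1 to 4, lower in the transgenic female in every lane. This gene lies wholly within Gm20634 on the same strand, at 3.71 RPM, and 100% of its 50-base stretches occur in other annotated genes, so its level is uncertain. Hist1h3f averaged 0.655 RPM and was seen in all 21 oocytes. Hist2h3b averaged 0.318 RPM, with reads in 8 of 10 transgenic and 7 of 11 wild-type oocytes, and overlaps Gm20628 on the opposite strand.

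Among the 13 H4 genes 9 had reads, and none reached a mean of 1 RPM. Hist1h4d led with 0.999 ± 1.29 RPM, or 32.3% of the class, followed by Hist2h4 with 0.787 ± 1.14 RPM and Hist4h4 with 0.718 ± 0.585 RPM. Hist1h4d was seen in all 21 oocytes but unevenly, from 0.0387 to 5.66 RPM. Hist2h4 had reads in 8 of 10 transgenic oocytes, those of lanes 2 to 4, and in 7 of 11 wild-type oocytes, with 1 to 61 reads in the latter. The transgenic oocytes of lane 1, although among the deepest libraries, had no read of Hist2h4, Hist2h3b or Hist1h2al. Such absence was not particular to them. The wild-type oocytes of lane 4 had no read of Hist2h3b and 1 and 2 reads of Hist2h4, and no wild-type oocyte had a read of Hist1h2al.

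Within females the SD of log2(RPM + 1) was 0.53 for Hist1h1a, 0.40 for Hist1h2aa and 0.41 for Hist1h2bc, and the SD of the female means was 0.72, 0.40 and 1.03. The value of 1.03 for Hist1h2bc rested on the wild-type female of lane 4, and over the remaining 7 females it was 0.45. Over all oocytes the SD of the tested members was largest for Hist1h2bc (0.95), Hist1h1a (0.79) and Hist1h1e (0.75), and smallest for Hist1h2aa (0.48), Hist3h2a (0.63) and Hist3h2ba (0.66). All tested genes had a median SD of 0.47, those of 10 to 50 RPM one of 0.45 and those of 1 to 5 RPM one of 0.65.

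The genotype comparison asked whether oocytes of AMH-overexpressing mice hold other levels of histone messages. The 9 members with a mean of at least 1 RPM were tested with limma on log2(RPM + 1) over all 10987 genes past that filter. None of the 9 passed at an adjusted p of 0.05, and 0 of all 10987 genes did (0%), the smallest adjusted p being 0.724. In all 9 members the level was lower in the transgenic group, against 52.2% of all tested genes, with a median log2 difference of -0.33 against -0.01 over all tested genes. The direction of Hist1h1c turned with the scaling, to 0.01 after quantile normalization and 0.03 after median centring, and leaving out 1 female left 6 to 9 of the 9 lower, the 6 when the wild-type female of lane 2 was dropped. At an unadjusted p under 0.05, 2 of 9 members (22.2%) were lower, against 4.03% of all tested genes, and 0 were higher, against 2.78%. Lower in the transgenic female of all 4 lanes were 3 of 9 members (33.3%), against 10.0%, and 1 of 9 (11.1%) had female means that did not overlap, against 2.39%. With 9 members these counts are small.

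The members with the smallest p were Hist1h2ac, Hist2h3c1 and Hist3h2ba. Hist1h2ac averaged 1.03 ± 0.113 RPM in the transgenic and 2.53 ± 1.25 RPM in the wild-type females (SD, n = 4 each). Its log2 difference was -0.69 ± 0.26 (SE; limma p = 0.0195, adjusted p = 0.724). For Hist2h3c1 the means were 2.62 ± 1.18 and 4.77 ± 1.44 RPM, a log2 difference of -0.73 ± 0.29 (limma p = 0.0268, adjusted p = 0.724). Hist3h2ba, at 2.49 ± 0.964 and 4.36 ± 1.34 RPM, had a log2 difference of -0.57 ± 0.28 (limma p = 0.0609, adjusted p = 0.743). None of the 3 passed the adjustment over 10987 genes.

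The 3 most abundant members did not pass either. Hist1h1a averaged 32.6 ± 14.5 and 36.2 ± 18.3 RPM, a log2 difference of -0.08 ± 0.40 (limma adjusted p = 0.970). For Hist1h2aa the means were 19.4 ± 7.65 and 23.5 ± 3.34 RPM, a log2 difference of -0.33 ± 0.25 (limma adjusted p = 0.799). Hist1h2bc, at 10.9 ± 5.29 and 26.3 ± 30.0 RPM, had the largest log2 difference, -0.81 ± 0.51 (limma adjusted p = 0.764). When the wild-type female of lane 4 was left out, it came to -0.17. The others, Hist3h2a, Hist1h1e and Hist1h1c, lay at -0.14, -0.06 and -0.02.

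**Figure D4:**
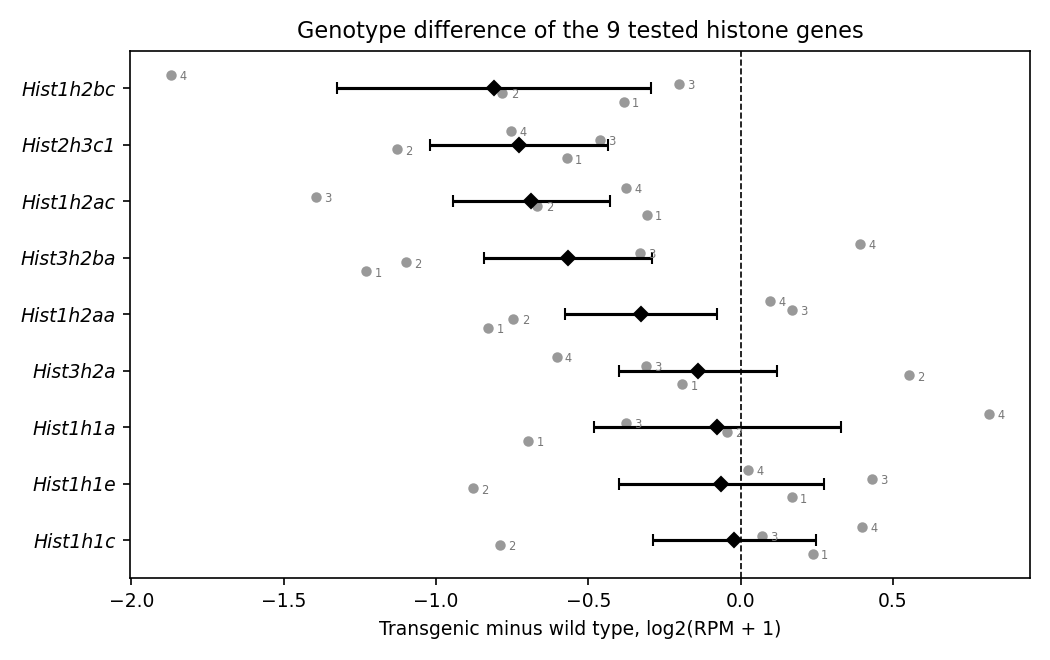
Transgenic minus wild type in log2(RPM + 1) for the 9 tested histone genes: diamonds with bars give the limma estimate and its SE, and grey points the difference within each lane, numbered by lane. Hist1h2bc, Hist2h3c1 and Hist1h2ac lie below 0 in all 4 lanes, and the point of lane 4 for Hist1h2bc lies at -1.87.

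The members below 1 RPM could be compared only without the filter, where 45 members entered. Of these, 3 had p under 0.05 and were lower in the transgenic group (Hist1h2bk, Hist1h2ac and Hist2h3c1), against 3.39% of 18313 genes, and 1 was higher (Hist1h2al, which entered through its transgenic reads alone), against 2.65%. None passed the adjustment, and 33 of the 45 were lower, against 52.6% of the genes in that fit. A member with reads in 1 genotype alone had to differ in this fit, so nothing is read from these counts. Hist1h2bk, at 0.0413 ± 0.0189 and 0.183 ± 0.0884 RPM, had a log2 difference of -0.18 ± 0.06 (SE; limma p = 0.0118, adjusted p = 0.807).

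Summed by class, the female means averaged 35.4 ± 14.8 RPM in the transgenic and 39.2 ± 19.1 RPM in the wild-type mice for H1, and 22.4 ± 7.50 against 27.9 ± 1.96 RPM for H2A. For H2B they were 15.3 ± 5.94 against 33.1 ± 28.2 RPM, for H3 3.82 ± 1.21 against 5.81 ± 1.35 RPM, and for H4 3.35 ± 1.55 against 2.61 ± 0.983 RPM. As log2 ratios these came to -0.14, -0.32, -1.12, -0.61 and 0.36, and the females of the 2 genotypes overlapped in every class. The H1 ratio turned to 0.06 when the transgenic female of lane 1 was left out, and to 0.12 when the wild-type one of lane 3 was. The H2B ratio came to -0.32 when the wild-type female of lane 4 was left out, and the H3 ratio was 0.21 without Hist2h3c1. The sum over the family was 80.3 ± 20.7 against 109 ± 17.9 RPM, lower in the transgenic female of each lane, with a log2 ratio of -0.44. Of single tested genes, 10.0% were lower in all 4 lanes.

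The kit's control RNA, a single library without replicate, shared 23 of its 27 members with reads with the oocytes but differed in their levels. Its highest members by class were Hist1h1c at 12.7, Hist3h2a at 36.5, Hist3h2ba at 24.5, Hist2h3c1 at 1.41 and Hist2h4 at 2.63 RPM. Hist3h2a was 23.9-fold, Hist1h1c 12.0-fold, Hist3h2ba 6.90-fold and Hist2h4 3.34-fold above the oocyte mean there. Hist2h2be, at 5.22 RPM in the control RNA and without a read in any oocyte, was at least 869-fold higher than the limit of 3 reads over all oocytes. H2A and H2B, at 40.0 and 49.8 RPM, made up most of its histone reads.

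**Figure D5:**
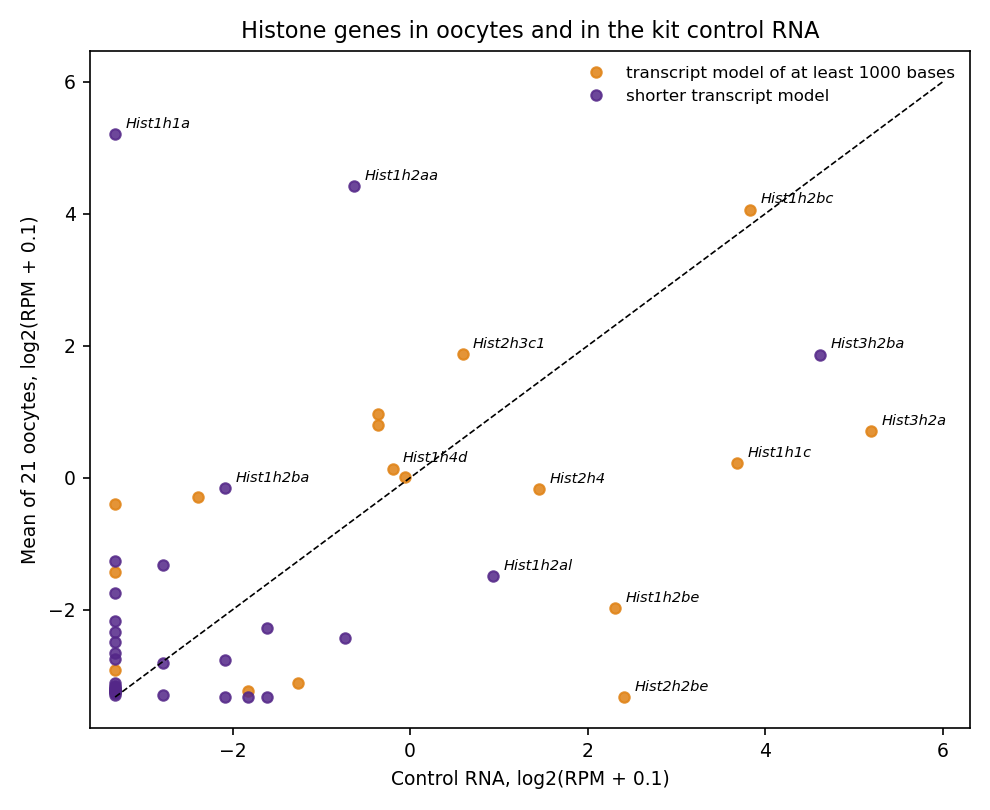
Mean level over 21 oocytes against the level in the control RNA, both as log2(RPM + 0.1), for the histone genes with reads, coloured by the length of the longest transcript model; the dashed line marks equal levels. Hist1h1a and Hist1h2aa lie far above the line, and Hist3h2a, Hist1h1c, Hist1h2be and Hist2h2be far below it.

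Transcript models of at least 1000 bases were present for 19 members, and 16 of these had oocyte reads, compared with 29 of the 49 shorter ones. They carried 74.0% of the histone level in the control RNA and 32.4% in the oocytes. These counts and levels were not divided by length, and longer transcripts gather more reads. A poly(A) signal (AATAAA or ATTAAA in the last 60 bases) was found in the models of 17 members, including 4 of the 9 with at least 1 RPM, 7 of the 36 below that with reads and 6 of the 23 without. The share of all mouse transcripts with such a signal was not computed. Sequence shared with other annotated genes was frequent. The median share of 50-base stretches also found in other genes was 23.8% for the 9 members of at least 1 RPM. It was 56.0% for the 36 below that with reads and 60.4% for those without reads. Genes annotated over the same bases add to this share, so it does not measure near-identical copies alone. Hist2h3c1, which lies wholly within Gm20634, had a share of 100%. No source used here says how reads with several matches were treated, and its part in these levels was not tested.

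The genes outside the family whose levels were most like those of Hist1h1a over the 21 oocytes, by Pearson's r of log2(RPM + 1) across all tested genes, were Ik (0.92), Lmo7 (0.91) and Gm15246 (0.90). Relative to the mean of each female r was 0.85, 0.88 and 0.87. The oocytes share 8 females and 4 lanes, so these values are descriptions. Ik, for example, had female means of 107, 206, 223 and 159 RPM in the transgenic and 200.3, 232, 241 and 112 RPM in the wild-type mice of lanes 1 to 4.

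The genes that make, process and handle histone messages were present in the oocyte and did not pass the test. Of 13 genes of histone transcription and 3′ end processing, 12 were tested, 0 passed, and 11 had a higher and 1 a lower mean in the transgenic group, with a median log2 difference of 0.10. Among all 10987 tested genes 52.2% were lower, with a median log2 difference of -0.01. The list is small, and its direction as a set was not tested. Slbp, which encodes the stem-loop binding protein, was at 3546 ± 758 RPM (SD, n = 21 oocytes) with a log2 difference of 0.07 ± 0.17 (limma adjusted p = 0.933). Zfp473, which takes part in 3′ end processing of histone pre-mRNA, stood at 22.8 ± 4.80 against 16.0 ± 3.46 RPM in the females (limma p = 0.0385, adjusted p = 0.724). All 5 decay genes were tested, 3 higher and 2 lower, and 0 passed.

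Of 14 genes of histone supply and assembly, 6 were higher, 8 lower (against 52.2% of all tested genes) and 0 passed, with a median log2 difference of -0.03. Chaf1b, a subunit of the chromatin assembly factor CAF-1, was at 1.65 ± 0.409 against 3.39 ± 0.672 RPM, a log2 difference of -0.71 ± 0.24 (limma p = 0.0109, adjusted p = 0.724). It was lower in all 4 lanes, as were 10.0% of all tested genes. Nasp, a histone chaperone, was at 312 ± 82.3 against 368 ± 51.4 RPM (limma adjusted p = 0.764). The most abundant were Rbbp7, a histone-binding subunit of several chromatin complexes, at 3975 ± 835 RPM, and Atrx, a chromatin remodeller that works with DAXX to deposit H3.3, at 989 ± 150 RPM (SD, n = 21 oocytes).

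Histone variants made outside S phase have mostly polyadenylated messages, and a few of them were abundant. Of 15 listed, 13 matched the table, 11 were tested, 4 were higher, 7 lower (against 52.2% of all tested genes) and 0 passed, with a median log2 difference of -0.11. H1foo, the oocyte linker histone, averaged 8316 ± 1500 RPM (SD, n = 21 oocytes), and per kilobase it stood 141-fold above Hist1h1a. H3f3b, which encodes H3.3, averaged 1599 ± 205 RPM, or 636 RPM per kilobase, and Cenpa, the centromeric H3, 133 ± 20.9 RPM. The smallest p among the variants belonged to H2afj, at 9.71 ± 2.27 against 12.9 ± 2.21 RPM (limma p = 0.0839, adjusted p = 0.760), and H2afx, at 29.5 ± 14.7 against 52.5 ± 39.0 RPM (limma adjusted p = 0.764). The wild-type female of lane 4 had 110 RPM of H2afx, and the other 3 wild-type females averaged 33.2 RPM.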

How the data were processed

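The authors deposited 1 table of log2 values per library. Per the submitters' processing notes, Trim Galore, FastQC and HISAT2 were used, and the builds GRCm39 and mm39 are named; the coordinates in the table are those of GRCm38 and are printed as such. No source used here gives the counting tool, its handling of reads with several matches, or whether strand was used. The deposited log2 values are named RPKM but are reads per 1000000 reads of the library (RPM) without division by length: a gene with no read is entered as 0.9 reads, which allowed the whole reads to be recovered (100% of 256342 values under 2000 reads within 0.02 of a whole read). The plan allowed for either unit. RPM was computed with genes without reads at 0. Oocyte A of lane 1 (transgenic) and a library made from water were not analysed here.

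Oocytes of a female were averaged as log2(RPM + 1), which compresses changes at low levels. Genes whose oocyte mean reached 1 RPM entered a two-sided limma fit (version 3.58.1 under R 4.3.3, trended eBayes) of 4 transgenic against 4 wild-type females. Benjamini-Hochberg adjusted p was judged at 0.05. The main fit had no block. By the labels a lane is a shared sequencing batch of 1 transgenic and 1 wild-type female, so it pairs them; deviations of lane mates correlated at -0.04, 0.08, 0.34 and 0.32 in lanes 1 to 4. The females are separate animals. Alternatives varied the pseudocount, filter, scaling, block, unit of replication and females included, with voom on recovered reads.

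Transcripts were those of GENCODE M21 (61 members matched by gene ID, 7 by symbol) and promoters those of RefSeq on GRCm38.p6 (62 matched).

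The members and gene lists were chosen with earlier results of these data known. Named members are the 3 with the most reads per class, the smallest p up to 3 per direction, the 3 largest and 3 smallest SD, the highest in control RNA per class, the 3 smallest p and 3 highest levels of the other lists, Amh, and the 3 genes most like Hist1h1a. Hist1h1d, Hist1h1t, Hist1h2al, Hist1h2ba, Hist1h2be, Hist1h2bk and Hist2h2be are named outside this rule, after their values were seen, as are the further genes of the closing observations and the carriers of the printed stem-loops. Limits from 3 reads cover counting error only, whereas values after ± are SDs or SEs between oocytes or females.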

Additional observations from a re-analysis of the deposited data

Results flagged for a closer look

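Each of 45 groups of values, the 4 female means of each genotype and the 10 transgenic oocytes for the 9 tested members, the 5 class sums and the family sum, was examined for a value far from the others, and 9 groups held one. For independent, normally distributed values chance gives about 1 in 20. The levels were not log-transformed here, and the 10 transgenic oocytes come from 4 females, so that share need not hold for these groups. Sums that contain the same gene are not independent.

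In the wild-type female of lane 4, Hist1h2bc stood at 71.3 RPM with the next wild-type female at 11.9, the H2B sum at 75.4 with the next at 20.2, Hist2h3c1 at 6.91 with the next at 4.23, and the H3 sum at 7.82 with the next at 5.38 RPM. This female also had 214 tested genes at least 1 log2 unit above every other female, and its part in these values was not tested. The wild-type female of lane 2 had 4.09 RPM of Hist1h1e, which was at most 1.02 RPM in the other wild-type females. Oocyte C of the transgenic female of lane 3 had 77.2 RPM of Hist1h1a against at most 47.1 in the other transgenic oocytes, an H1 sum of 83.1 against 49.3, and a family sum of 143 against 98.5 RPM. Oocyte B of the same female had 3.74 RPM of Hist3h2a, the next transgenic oocyte having 2.17.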

How the results depend on the processing

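No member, and no gene of the lists of histone mRNA handling and histone variants, passed the adjustment under any of 18 alternatives. With the lane as replicate block, 0 members passed and 3 had p under 0.05; the block changed no call. The count at p under 0.05 was 2 in the main analysis, 0 at a mean of at least 5 RPM, 4 with oocytes singly and the lane as replicate block, and 1 to 4 leaving out a female (1 without the transgenic female of lane 2 or the wild-type female of lane 3, 4 without the transgenic female of lane 4). Without the filter on low values it was 4, among them Hist1h2al, which entered through its transgenic reads alone. Members with a lower transgenic mean were 9 of 9 tested, against 52.2% of all genes in that fit. At 5 RPM they were 3 of 3, all among the same 9, against 50.6%. In the fit without the filter 33 of 45 were lower, against 52.6%. Members with reads in 1 genotype alone had to differ there, so nothing is read from that count. With reads scaled to those in listed genes, 9 of 10 members had a lower transgenic mean. The direction turned for Hist1h1c to 0.25 with a pseudocount of 0.1, 0.011 with quantile normalization, 0.031 with median centring and 0.11 without the oocyte with cumulus reads, an alternative added after the data were seen. For Hist1h1e it turned to 0.12 with voom. Leaving out a female, Hist1h1c ran from -0.14 to 0.16, Hist1h1e from -0.23 to 0.28 and Hist1h1a from -0.46 to 0.22. Leaving out a female, the log2 ratio of the H1 sum ran from -0.40 to 0.12 and that of H2B from -1.41 to -0.32, and that of H3 was 0.21 without its most abundant member. The median number of members detected per oocyte was 24 at 1 read, 9 at 1 RPM and 3 at 10 RPM.

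Depth limits the members below 0.147 RPM, where a library holds under 3 reads. Priming from poly(A), overlapping genes and sequence shared with other genes limit what a member's reads stand for. With 4 females per genotype, and oocytes of 1 female sharing a lane, a p that misses the threshold does not show that levels were alike.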

Other observations

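The pattern of Hist1h2al, with reads in all 8 transgenic oocytes of lanes 2 to 4 and in none of the other 13 oocytes, was shared by 1 other entry of the whole table. This was Cd1d2, an antigen-presenting molecule gene, with 28, 10 and 11 reads in lane 2, 32, 5 and 16 in lane 3 and 6 and 33 in lane 4, and none in the control RNA. The same pattern in the wild-type oocytes, reads in all 8 of lanes 2 to 4 and in no other oocyte, was found for 0 entries. The pattern was looked for after the values of Hist1h2al were seen, so that gene matched it by construction. The wild-type pattern was not drawn from any gene, so nothing is read from the 2 counts set side by side. No cause was tested.

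Genes outside the family were also high in the wild-type female of lane 4. There 214 tested genes stood at least 1 log2 unit above every other female. Picking genes by r with Hist1h2bc, itself highest in that female, favours such genes. The 3 with the highest r over the 21 oocytes were Pdcl3 (0.94), H3f3a (0.93) and Eef1e1 (0.92), at 2.25-, 2.52- and 2.33-fold the next highest female there, which for each was the transgenic female of the same lane. H3f3a, a gene of the variant H3.3, had female means of 26.7, 20.7, 26.9 and 56.7 RPM in the transgenic and 26.5, 26.5, 28.2 and 143 RPM in the wild-type mice of lanes 1 to 4. Relative to the mean of each female r was 0.65, 0.44 and 0.63.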
